A study of Mus musculus with 12 samples.

Results

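The genes described here protect cells from oxidants and bind reactive metals. They were 41 mouse genes taken by symbol from a list of the transcription factor Nrf2 and its targets, the thioredoxin, peroxiredoxin and glutathione enzymes, the superoxide dismutases and catalase, the metallothioneins and the ferritins. All 41 were found among the 55901 genes of the expression table, and the list uses symbols and no measured value, although it was drawn up with earlier results of these data known. Of these, 40 reached the mean of 0.5 FPKM (fragments per kilobase of gene, scaled to the depth of the library) needed for testing, as did 15016 genes in all. The remaining member, Sod3, which encodes the secreted superoxide dismutase, stayed below that level, at 0.0681 to 0.556 FPKM in the 12 libraries, and was not tested.

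The study asked how transforming growth factor β1 (TGF-β1) acts on mechanically injured neurons. Polyadenylated RNA was sequenced from primary cortical neurons of newborn C57BL/6J mice after 7 days in culture, in 3 groups of 4 libraries. All cultures had been given arabinosylcytosine, an inhibitor of DNA synthesis that limits dividing glia, at 5 μmol as the labels write it. Control cultures were neither scratched nor given TGF-β1, Trauma cultures were scratched with a needle and left for 24 h, and Trauma+TGF-β1 cultures were scratched and kept for 24 h with TGF-β1 at 10 ng/mL. No group received TGF-β1 without a scratch. The labels call all cells cortical neurons, no gene was deleted, and nothing in the sources used here says whether the 4 libraries of a group came from separate cultures or litters. The methods text also speaks of fewer RNA-seq samples than the 12 libraries that are labelled. The p-values below therefore measure the spread between these libraries, which may be technical.

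Nrf2, encoded by Nfe2l2, is a transcription factor held at a low level by Keap1, which marks it for degradation. When Keap1 is modified by oxidants, Nrf2 accumulates and switches on genes for glutathione synthesis, thioredoxin reduction and haem breakdown by way of the antioxidant response element. The metallothionein genes Mt1 and Mt2 answer to zinc and other metals by way of the metal response element. In brain, much of the glutathione system is carried by astrocytes, which pass glutathione precursors to neurons, and ferritin stores the iron that would otherwise drive radical formation.

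Each library held 15052486 to 17381671 reads on genes, and the share of reads on mitochondrial genes was 2.12% to 2.97% in Control, 2.17% to 2.30% in Trauma, and from 2.69% to 3.23% with TGF-β1. Markers of neurons were the most abundant of 5 lists of 10 cell type markers, at a summed level of 1654 to 1706 FPKM in Control, 1450 to 1552 FPKM after a scratch and 1417 to 1454 FPKM after a scratch with TGF-β1. Most of that difference came from Tubb3, a neuronal tubulin, at 960 ± 31.4, 842 ± 28.4 and 739 ± 24.6 FPKM. Without it the sums were 695 to 751, 637 to 673 and 678 to 708 FPKM, and Control and Trauma+TGF-β1 overlapped. Other cells were present as well. The summed level of the 10 astrocyte markers was 218 to 247 FPKM in Control, 278 to 340 FPKM after the scratch and 292 to 313 FPKM with TGF-β1 added. For microglia the ranges were 35.3 to 40.3, 49.0 to 59.1 and 43.2 to 49.4 FPKM in the same order. Those of the oligodendrocyte lineage were 54.0 to 60.3, 69.7 to 77.2 and 66.4 to 73.3 FPKM, while vascular and fibroblast markers summed to under 5 FPKM in every library. None of the 50 markers was at 0 in every library. Because whole cultures were sequenced, fewer cells of a type and less RNA per cell cannot be told apart in any value below.

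**Figure D1:**
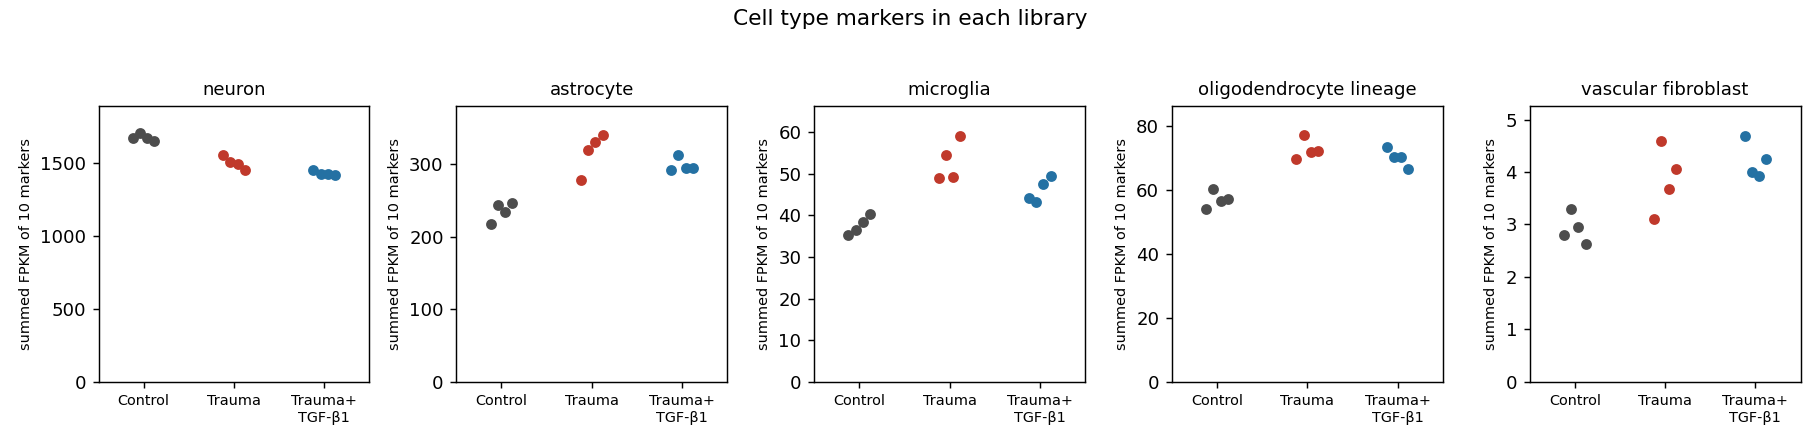
Summed FPKM of 10 marker genes for each of 5 cell types (vertical axes, from 0) in the 12 libraries, 1 point per library, by group. The neuron sum, to which Tubb3 contributes most, was lower in both scratched groups than in Control, and the sums for astrocytes, microglia and the oligodendrocyte lineage were higher, with no overlap of libraries.

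The promoters of 6 members are shown because these genes moved together or apart in the comparisons below. They come from RefSeq on GRCm38.p6, which listed promoters for 35 of the 41 members. Hmox1, Gclc, Gsr, Prdx6, Sod3 and Gsta4 had no entry. Each line gives the 200 bases before the start site, 5′ to 3′ on the strand of the gene. The windows are chr8:94178889-94179088 for Mt1, chr8:94172418-94172617 for Mt2 and chr8:94152407-94152606 for Mt3, all on the plus strand, and capitals there mark the core of the metal response element, TGCACNC or TGCGCNC on either strand. Of the others, Srxn1 lies at chr2:152105324-152105523 on the plus strand, Gstp1 at chr19:4037913-4038112 on the minus strand and Slc7a11 at chr3:50443614-50443813 on the minus strand, and capitals mark the core of the antioxidant response element, TGACNNNGC or TGAGNNNGC on either strand.
Mt1: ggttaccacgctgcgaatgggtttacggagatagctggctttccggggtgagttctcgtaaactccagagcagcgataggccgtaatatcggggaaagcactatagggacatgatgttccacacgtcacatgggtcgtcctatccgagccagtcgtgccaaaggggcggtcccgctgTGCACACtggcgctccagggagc
Mt2: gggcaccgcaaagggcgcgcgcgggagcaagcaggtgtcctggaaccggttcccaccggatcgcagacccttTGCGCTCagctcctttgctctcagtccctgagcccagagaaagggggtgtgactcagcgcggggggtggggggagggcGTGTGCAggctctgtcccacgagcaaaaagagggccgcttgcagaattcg
Mt3: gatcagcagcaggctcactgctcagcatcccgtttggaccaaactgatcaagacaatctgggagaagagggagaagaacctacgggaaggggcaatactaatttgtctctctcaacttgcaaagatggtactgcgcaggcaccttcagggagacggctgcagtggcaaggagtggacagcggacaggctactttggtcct
Srxn1: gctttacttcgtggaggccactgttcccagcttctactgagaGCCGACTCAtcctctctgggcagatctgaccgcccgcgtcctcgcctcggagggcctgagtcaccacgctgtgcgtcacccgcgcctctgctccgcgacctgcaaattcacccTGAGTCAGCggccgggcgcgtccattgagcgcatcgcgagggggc
Gstp1: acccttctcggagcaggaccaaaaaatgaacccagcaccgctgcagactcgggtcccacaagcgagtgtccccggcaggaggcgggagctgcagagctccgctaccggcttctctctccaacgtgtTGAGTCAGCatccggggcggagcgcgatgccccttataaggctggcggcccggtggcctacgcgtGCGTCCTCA
Slc7a11: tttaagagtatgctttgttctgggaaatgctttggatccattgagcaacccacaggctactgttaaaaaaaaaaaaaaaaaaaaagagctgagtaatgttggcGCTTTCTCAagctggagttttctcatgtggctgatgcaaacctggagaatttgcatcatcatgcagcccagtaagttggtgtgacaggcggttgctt

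In the full window of 300 bases, 250 before and 50 after the start, Mt1 held 3 metal element cores, Mt2 held 4 and Mt3 held 1. Of these, 1, 2 and 0 lie in the stretches printed, and the others lie at 3 to 9 and 21 to 27 in Mt1, at -223 to -217 and 5 to 11 in Mt2, and at 28 to 34 in Mt3, counted from the start site. Some members have several promoters, 44 in all. At least 1 metal core was present in 14 of these 44 and in 25.7% of all 32851 promoters, and 3 or more were present in 1.97% of all promoters. The antioxidant core occurred 3 times in Srxn1, 2 times in Gstp1 and once in Slc7a11, Mt2 and Mt3. It was likewise found in 14 of the 44 and in 27.8% of all promoters, and an antioxidant and a metal core overlapped in 1 member, Gclm. A match to these letters is a description of the sequence and not a bound site.

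In uninjured cultures the members spanned a wide range of levels. The ferritin chains were the most abundant, with Ftl1, the light chain, at 242 ± 8.20 FPKM and Fth1, the heavy chain, at 208 ± 6.44 FPKM (mean ± SD, n = 4, as for all group values below). In all, 14 members exceeded 30 FPKM in Control, among them Prdx2, Gstm1, Gpx4, Txn1 and Mt1 at 80.9 to 92.3 FPKM. Another 12 lay between 10 and 30 FPKM and 12 between 1 and 10 FPKM. Nqo1, Txnrd2 and Sod3 stayed under 1 FPKM. Nqo1, a quinone reductase widely used as a readout of Nrf2, rested on only 9 to 30 reads per library.

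**Figure D2:**
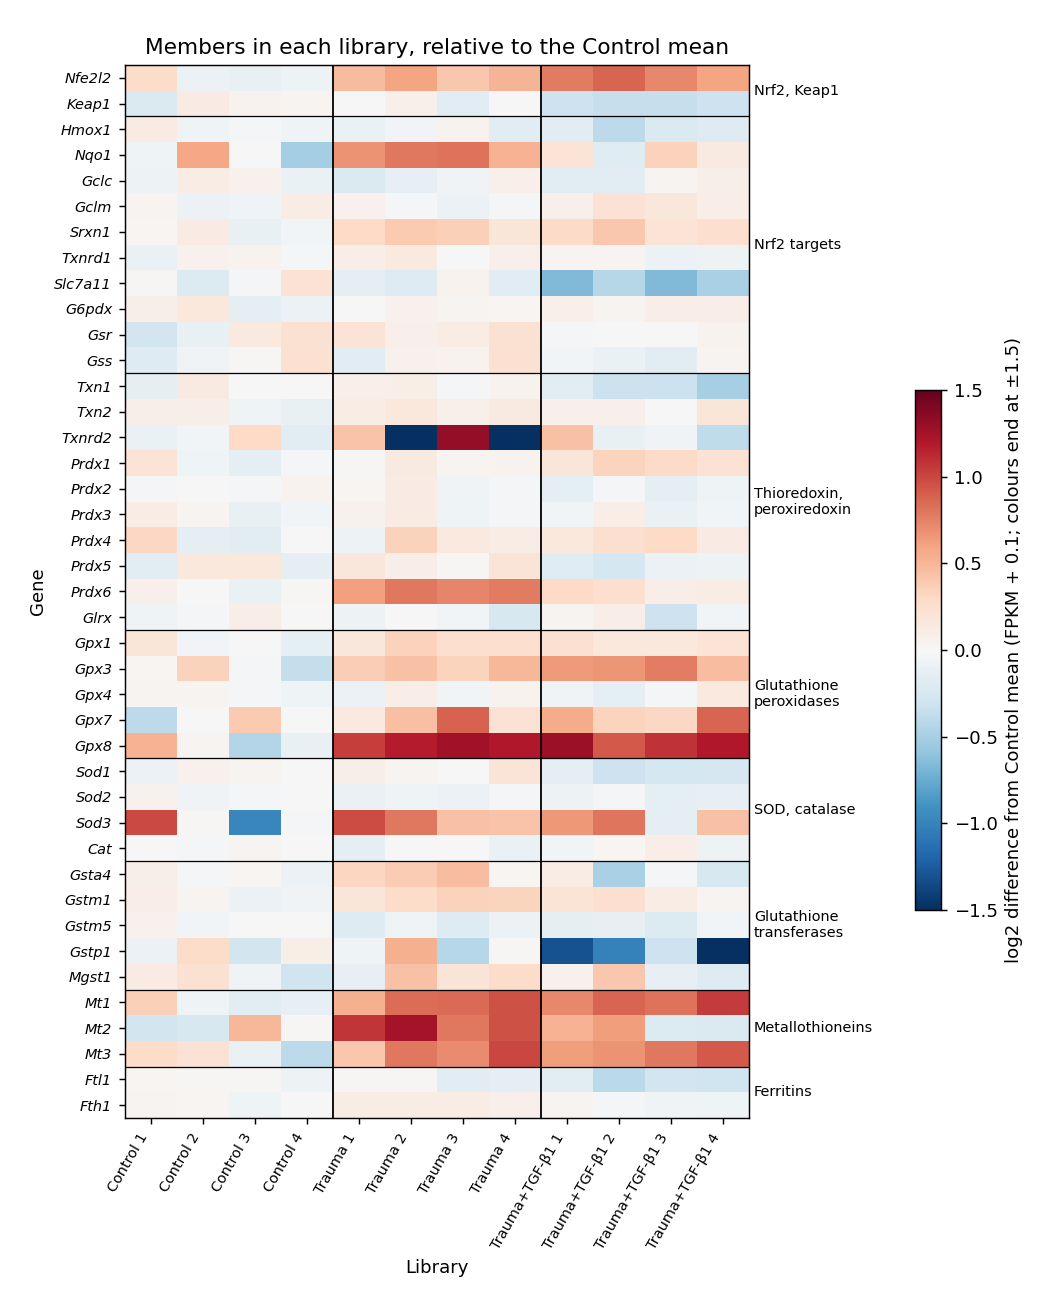
Each of the 41 members (rows, grouped by role) in each of the 12 libraries (columns), as the log2 difference of FPKM + 0.1 from the Control mean; red is higher, blue is lower, and colours end at ±1.5. Metallothioneins, Gpx8, Nfe2l2 and Prdx6 were red in the 4 Trauma libraries, and Slc7a11 and Gstp1 were blue in the 4 Trauma+TGF-β1 libraries.

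Scratch injury alone was compared with no injury to see which of these genes changed within 24 h. Of the 40 members tested, 9 passed the limma test, with an adjusted p not above 0.05, as upregulated in Trauma, and 0 were downregulated. Over all 15016 genes, 3.30% were upregulated and 2.70% downregulated. The 9 were the 3 metallothioneins, Prdx6, Gpx8, Gpx1, Nfe2l2, Srxn1 and Gstm1. Of these, 4 (Nfe2l2, Prdx6, Gpx8 and Mt1) passed under all 27 alternative settings. At an unadjusted limma p of at most 0.05, 15 members were higher and 1, Gstm5, was lower, and voom with limma on the recovered reads also gave 9 up and 0 down. Over all 15016 genes, 2997 reached that unadjusted limma p in either direction, a count not split into up and down. Voom called 623 of all genes up and 529 down. Libraries of the 2 groups did not overlap for 9 of the 40 members higher in Trauma and 1 lower, beside 6.25% and 6.69% of all genes. The median log2 fold change of the members was 0.080, beside -0.012 for all genes tested.

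The metallothionein genes stand in a row on chromosome 8 of GRCm38, with Mt3 at chr8:94152607-94154146, Mt2 at chr8:94172664-94173568 and Mt1 at chr8:94179082-94180327. The metallothioneins, small cysteine-rich proteins that hold zinc and copper, rose together. Mt1 measured 103, 76.5, 71.0 and 73.3 FPKM in the Control libraries and 116, 143, 144 and 155 FPKM in the Trauma libraries. Every Trauma library lay above every Control library. The group means were 80.9 ± 14.8 and 139.7 ± 16.7 FPKM, a 1.73-fold ratio (log2 fold change 0.80, SE 0.12, limma adjusted p = 0.00247). Mt3, the form best known from neurons and astrocytes, measured 65.9, 63.1, 51.0 and 41.4 FPKM in Control and 72.3, 94.5, 89.2 and 109 FPKM in Trauma, again without overlap, with a ratio of 1.65 (log2 fold change 0.73, SE 0.15, limma adjusted p = 0.0141). Mt2 was far less abundant per length, at 9.73, 10.0, 16.7 and 11.9 FPKM in Control and 24.8, 28.2, 20.4 and 22.9 FPKM in Trauma. Its ratio of 1.99 was the largest of the 3 (log2 fold change 1.01, SE 0.22, limma adjusted p = 0.0178), and it rested on 88 to 289 reads per library. Without Trauma 2, the Mt2 call was lost, at a limma adjusted p of 0.0571, and a fit of the 2 groups alone left Mt3 at 0.0507.

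These 3 genes are also expressed by astrocytes, whose markers moved in the same comparison. Of the 10 astrocyte markers, 8 were upregulated in Trauma and 0 downregulated, among them Gfap, the astrocyte filament protein, with a log2 fold change of 0.86, and Aqp4, the astrocyte water channel, with 0.62. Of 7 microglial markers tested 3 rose, of 7 of the oligodendrocyte lineage 3 rose, and of 10 neuronal markers 1 rose and 3 fell. The part of these shifts in the members' changes was not tested.

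Prdx6 encodes a peroxiredoxin that reduces oxidised phospholipids and is enriched in astrocytes. Its level was 23.7, 22.6, 21.0 and 22.7 FPKM in the Control libraries and 34.5, 39.0, 37.4 and 38.8 FPKM in the Trauma libraries. The groups lay far apart relative to their spread, at 22.5 ± 1.09 and 37.4 ± 2.08 FPKM (log2 fold change 0.73, SE 0.06, limma adjusted p = 3.06e-05), and this was the smallest adjusted p among the members in any of the 3 comparisons. The other 9 members of the thioredoxin and peroxiredoxin group did not pass the test. The cytosolic peroxiredoxins Prdx1 and Prdx2 had log2 fold changes of 0.06 and 0.02, the mitochondrial Prdx3 one of 0.02, and Txn1, cytosolic thioredoxin, one of 0.04. Txnrd2, the mitochondrial thioredoxin reductase, ranged from 0.166 to 1.98 FPKM among the 4 Trauma libraries, on 13 to 154 reads. That spread exceeded any difference between groups.

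The glutathione peroxidases differed among themselves. Gpx8, which resides in the endoplasmic reticulum, measured 5.52, 3.93, 2.79 and 3.53 FPKM in Control and 7.95, 8.81, 9.34 and 8.90 FPKM in Trauma. No libraries overlapped, and its 2.22-fold ratio was the largest of all members in this comparison (log2 fold change 1.17, SE 0.16, limma adjusted p = 0.00130), on 46 to 173 reads per library. Gpx1, the abundant cytosolic enzyme, rose less, from 37.0 ± 3.41 to 44.0 ± 2.16 FPKM (log2 fold change 0.26, SE 0.06, limma adjusted p = 0.0254), and Control 1, at 41.7 FPKM, lay within the Trauma range of 41.6 to 46.9 FPKM. The Gpx1 call was lost when any one of Control 2, 3 or 4 or Trauma 2, 3 or 4 was left out, at limma adjusted p-values of 0.0582 to 0.0780. In all, 13 of 27 alternatives lost it. These included no filter on low values, a fit of the 2 groups alone and corrections for gene length or GC content. Their limma adjusted p-values were 0.0548, 0.0782, 0.0501 and 0.0606. Gpx3, which is secreted, and Gpx7 had log2 fold changes of 0.41 and 0.43 and did not pass (limma adjusted p of 0.0913 for Gpx3). Gpx4, which repairs lipid peroxides and guards against ferroptosis, stood at 89.1 ± 3.06 FPKM in Control and 89.8 ± 5.41 FPKM in Trauma, a difference smaller than its spread, and its reads may be shared with the copy Gpx4-ps2.

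Nfe2l2 itself measured 3.56, 2.73, 2.68 and 2.77 FPKM in Control and 4.08, 4.45, 3.90 and 4.19 FPKM in Trauma. All Trauma values were above all Control values, although Control 1 stood nearer to Trauma than the other 3 did (log2 fold change 0.50, SE 0.10, limma adjusted p = 0.0102). Keap1 measured 14.7 ± 1.45 FPKM in Control and 14.4 ± 1.03 FPKM in Trauma and did not pass. Among the 10 targets of Nrf2, only Srxn1 was upregulated. Srxn1 encodes sulfiredoxin, which restores over-oxidised peroxiredoxins, and it measured 12.8, 13.7, 11.7 and 12.2 FPKM in Control and 15.5, 16.5, 16.1 and 14.3 FPKM in Trauma (log2 fold change 0.31, SE 0.06, limma adjusted p = 0.0149). A correction for GC content left it at a limma adjusted p of 0.0534. The 9 other targets included Hmox1 (haem oxygenase), Gclc and Gclm (the subunits of the enzyme that starts glutathione synthesis) and Txnrd1 (cytosolic thioredoxin reductase), with log2 fold changes of -0.06, -0.08, -0.02 and 0.08. Nqo1 had a larger one, 0.70 ± 0.23 (SE), but at its few reads the limma adjusted p was 0.109.

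Of the glutathione transferases, which attach glutathione to reactive compounds, Gstm1 was upregulated. It measured 96.3, 92.3, 84.9 and 86.9 FPKM in Control and 102, 109, 115 and 113 FPKM in Trauma, without overlap (log2 fold change 0.28, SE 0.06, limma adjusted p = 0.0134). Gsta4, Mgst1 and Gstp1 had log2 fold changes of 0.30, 0.19 and 0.01 and did not pass. Gstm5, which overlaps the opposite-strand gene 4933431E20Rik, was lower in all 4 Trauma libraries than in any Control library, at 43.7 to 47.9 against 48.5 to 52.0 FPKM, with a limma adjusted p of 0.111. Sod1, Sod2 and Cat, the enzymes that remove superoxide and hydrogen peroxide, had log2 fold changes of 0.08, -0.07 and -0.06, and 0 of the 3 passed by limma, also at an unadjusted limma p of at most 0.05 and by voom. Fth1 was higher in all Trauma libraries but by only 0.10 on the log2 scale (limma adjusted p = 0.106).

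**Figure D3:**
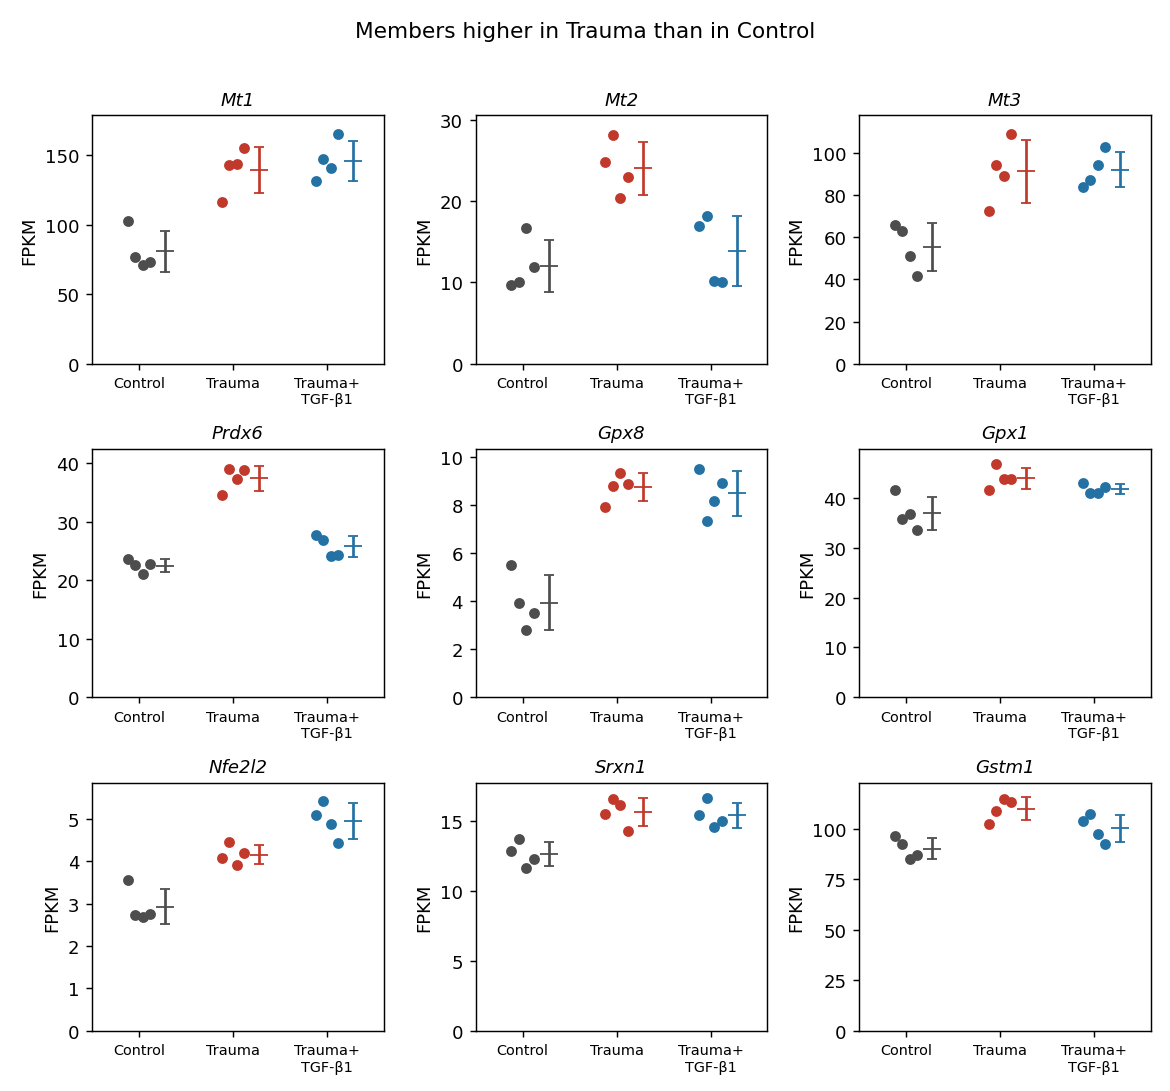
FPKM (vertical axes, from 0) of the 9 members upregulated in Trauma against Control; each point is 1 library, and the bar beside it is the mean ± SD of 4. Mt2 and Prdx6 were downregulated in Trauma+TGF-β1 against Trauma, while Mt1, Mt3 and Gpx8 had log2 fold changes of 0.07, 0.03 and -0.05 there and did not pass.

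Trauma+TGF-β1 was compared with Trauma to see how the factor altered these genes after a scratch. The Trauma libraries serve in both comparisons, so the 2 sets of values are not independent. Of the 40 members, 10 were downregulated and 0 upregulated, while over all genes 7.71% were downregulated and 4.40% upregulated. The 10 were Prdx6, Txn1, Sod1, Slc7a11, Keap1, Mt2, Gstp1, Gsta4, Ftl1 and Fth1. In the upward direction, 3 members (Nfe2l2, Gclm and Prdx1) reached an unadjusted limma p of at most 0.05, 15 did so downward, and voom called 1 up and 11 down. Over all genes, 4391 of 15016 reached that unadjusted limma p in either direction, a count not split into up and down. Voom called 1094 of all genes up and 1460 down. Without overlap, 2 of the 40 members were higher and 11 lower, beside 10.2% and 12.0% of all genes. The median log2 fold change of the members was -0.058, beside 0.002 for all genes. Under the 27 alternatives the number called ran from 4 to 13, and 3 of the 10, Prdx6, Sod1 and Slc7a11, passed in every one. Calls over all genes moved too, to 241 up and 553 down without Trauma 2, where 4 members were called. Without Control 1, where 13 members were called, they were 997 and 1542.

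Prdx6 fell with the smallest adjusted p of the 10. From 34.5, 39.0, 37.4 and 38.8 FPKM in Trauma it came to 27.7, 26.9, 24.2 and 24.4 FPKM in Trauma+TGF-β1, with no overlap. The log2 fold change was -0.54 ± 0.06 (SE), with a limma adjusted p of 0.00126. Its level with TGF-β1 remained a little above Control, at 25.8 ± 1.77 against 22.5 ± 1.09 FPKM, and that remaining difference is taken up further on. Among astrocyte markers, Aldh1l1, a folate enzyme, and Gja1 went the same way and passed in both comparisons. Their log2 fold changes were 0.56 and 0.40 in Trauma against Control and -0.50 and -0.27 in Trauma+TGF-β1 against Trauma. Gfap and Aqp4 did not, at 0.17 (not passed) and 0.32 (upregulated) in the latter comparison, where 8 of the 10 had negative log2 fold changes. In all, 3 of the 10 astrocyte markers fell and 1 rose, 2 of 10 neuronal markers fell and 1 rose, and 1 of 7 each fell for microglia and the oligodendrocyte lineage. Their part in the members' changes was not tested.

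Sod1, the cytosolic copper-zinc superoxide dismutase, measured 36.3, 35.3, 34.2 and 39.1 FPKM in Trauma and 31.2, 27.6, 28.4 and 28.8 FPKM with TGF-β1. All 4 treated libraries were lower (log2 fold change -0.32, SE 0.05, limma adjusted p = 0.00639). The gene overlaps Scaf4 on the opposite strand, and the strand setting of the counting is not given in the sources used here. Txn1 measured 89.7, 90.5, 83.5 and 88.4 FPKM and 76.3, 68.1, 68.3 and 60.3 FPKM in the same order, without overlap (log2 fold change -0.37, SE 0.07, limma adjusted p = 0.00982). The mitochondrial counterparts Sod2 and Txn2 had log2 fold changes of -0.02 and -0.04 and did not pass. Prdx5 had a log2 fold change of -0.27 with no overlap of libraries, and missed the threshold at a limma adjusted p of 0.0507.

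Slc7a11 encodes the cystine and glutamate exchanger that supplies cysteine for glutathione. It measured 3.39, 3.25, 3.88 and 3.29 FPKM in Trauma and 2.32, 2.76, 2.33 and 2.64 FPKM with TGF-β1, on 491 to 956 reads. The groups did not overlap, and the ratio of means was 0.727 (log2 fold change -0.45, SE 0.10, limma adjusted p = 0.0176). None of the enzymes that build glutathione from this cysteine passed the test: Gclc and Gclm had log2 fold changes of 0.03 and 0.16, and Gss, glutathione synthetase, -0.11. Gss overlaps the opposite-strand gene Acss2 and may share reads with it. Hmox1 and Nqo1 were lower in all 4 treated libraries than in any Trauma library, with log2 fold changes of -0.17 and -0.58, but neither passed (limma adjusted p of 0.0947 and 0.123). Keap1 measured 14.6, 15.5, 13.0 and 14.7 FPKM in Trauma and 11.8, 11.5, 11.5 and 11.7 FPKM with TGF-β1 (log2 fold change -0.31, SE 0.07, limma adjusted p = 0.020). The Keap1 call was lost without Trauma 2, Trauma 4 or Trauma+TGF-β1 2, at limma adjusted p-values of 0.0534 to 0.0608, and with a correction for GC content, which reduced the log2 fold change to -0.15 (limma adjusted p = 0.144). Nfe2l2 had a log2 fold change of 0.25 in the other direction (limma adjusted p = 0.109).

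Of the 3 metallothioneins, 1, Mt2, fell in this comparison. It measured 17.0, 18.2, 10.2 and 10.1 FPKM with TGF-β1, all below the 20.4 to 28.2 FPKM of Trauma (log2 fold change -0.84, SE 0.22, limma adjusted p = 0.0296). Mt1 and Mt3, whose genes stand in the same cluster of chromosome 8, had log2 fold changes of 0.07 and 0.03 and did not pass. A test of Mt2 against its neighbours was not made. The 4 treated Mt2 values formed a higher pair, libraries 1 and 2, and a lower pair, libraries 3 and 4. The Mt2 call was lost without any one of Trauma 1, 2 or 4 or Trauma+TGF-β1 3 or 4, at limma adjusted p-values of 0.0636 to 0.0852, and with a correction for GC content, at 0.0586.

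Gstp1, a transferase that also binds signalling kinases, had the largest fold change of the 10 and few reads. It measured 1.53, 2.37, 1.17 and 1.63 FPKM in Trauma and 0.594, 0.745, 1.28 and 0.363 FPKM with TGF-β1, on 9 to 64 reads, and the groups overlapped (log2 fold change -1.14, SE 0.30, limma adjusted p = 0.0300). Leaving out any one of Trauma 1, 2 or 4 or Trauma+TGF-β1 1, 2 or 4 removed the call, at limma adjusted p-values of 0.0596 to 0.0855. Gsta4, which detoxifies the lipid peroxidation product hydroxynonenal, measured 9.65, 10.0, 10.6 and 7.86 FPKM and 8.30, 5.47, 7.56 and 6.51 FPKM (log2 fold change -0.46, SE 0.12, limma adjusted p = 0.0317), also with overlap. It lost the call without Trauma 1, 2 or 3 or Trauma+TGF-β1 2 or 4, at 0.0697 to 0.0839. Gstm1, Gstm5 and Mgst1 did not pass, at log2 fold changes of -0.13, 0.00 and -0.16. None of the 5 glutathione peroxidases passed in either direction, by limma at an unadjusted p of at most 0.05 or by voom. Their log2 fold changes lay between -0.07 and 0.23.

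The ferritins were lower by small amounts on many reads, some of which Ftl1 may share with its copy Ftl1-ps1. Ftl1 measured 246, 244, 215 and 220.1 FPKM in Trauma and 215, 183, 198 and 197 FPKM with TGF-β1, with 1 treated library inside the Trauma range (log2 fold change -0.22, SE 0.06, limma adjusted p = 0.0288). Fth1 measured 225, 225, 224 and 218 FPKM and 214, 205, 201 and 199 FPKM, without overlap (log2 fold change -0.12, SE 0.03, limma adjusted p = 0.0356). Both calls depended on the processing. With a correction for GC content the log2 fold changes came to -0.08 and -0.09 (limma adjusted p of 0.441 and 0.135), and with quantile normalization they were -0.10 and 0.01. Ftl1 also lost the call without Trauma 1 or 2 or Trauma+TGF-β1 2 or 4, at limma adjusted p-values of 0.0722 to 0.0855. Fth1 lost it without Trauma 1, 2, 3 or 4 or Trauma+TGF-β1 2, 3 or 4, at 0.0601 to 0.10.

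**Figure D4:**
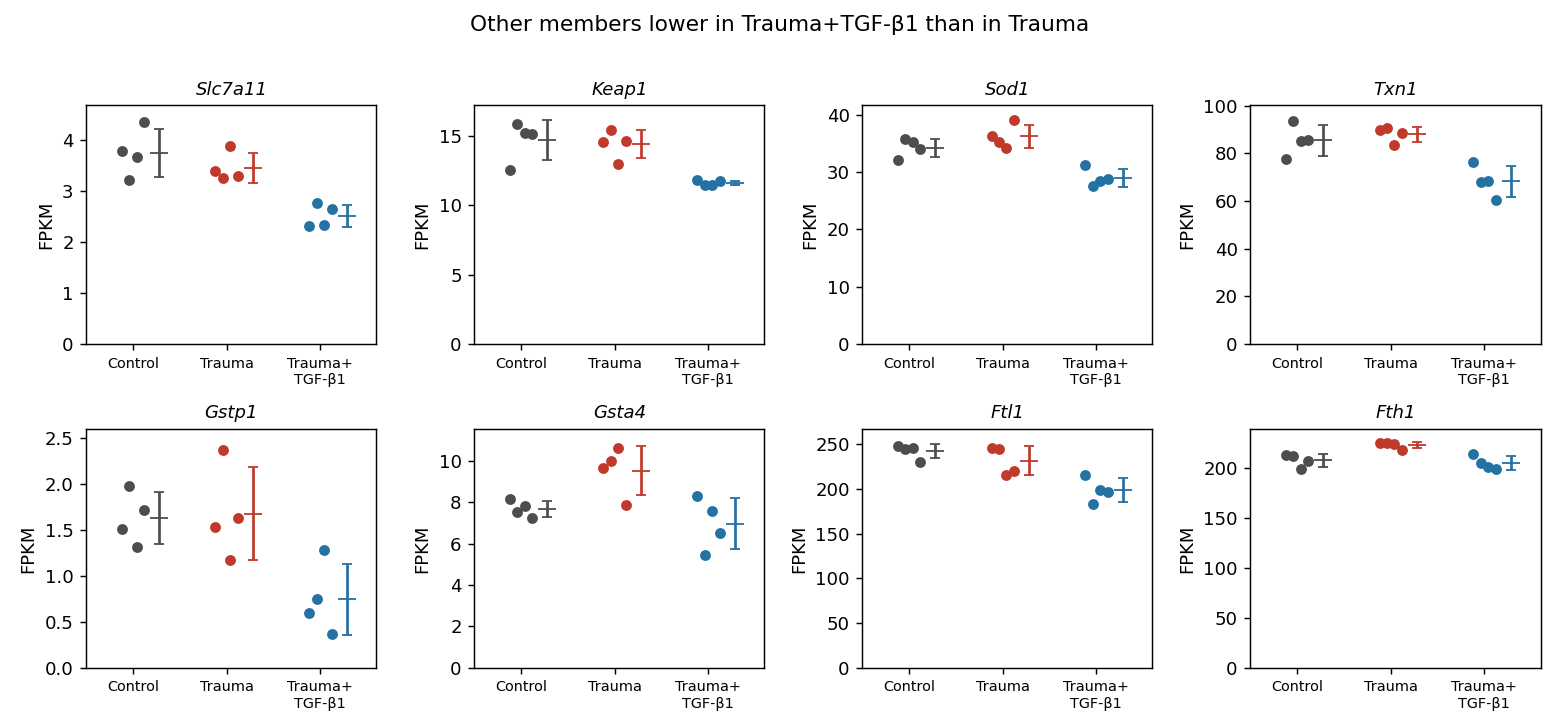
FPKM (vertical axes, from 0) of the 8 members, beside Prdx6 and Mt2, that were downregulated in Trauma+TGF-β1 against Trauma; each point is 1 library, and the bar beside it is the mean ± SD of 4. Slc7a11, Keap1, Sod1, Txn1 and Fth1 show no overlap between these groups, while Gstp1, Gsta4 and Ftl1 do.

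Trauma+TGF-β1 against Control gives the sum of both changes and shares its libraries with each of the comparisons above. Here 8 members were upregulated and 7 downregulated, while 6.14% of all genes were upregulated and 10.4% downregulated. Mt1, Mt3, Gpx8, Gpx3, Nfe2l2, Srxn1, Prdx1 and Prdx6 were higher. Slc7a11, Keap1, Hmox1, Txn1, Sod1, Gstp1 and Ftl1 were lower. The split moved with the scaling, to 11 up and 4 down with quantile normalization, 11 and 5 with a correction for GC content, 10 and 7 with one for gene length, and 10 and 6 with FPKM set to the reads on genes. The split over all genes moved too, from 922 up and 1565 down in the main fit. It became 1134 and 918, 851 and 1010, 885 and 1309, and 1339 and 1095 in the same order. Of the cell type markers, 4 of 10 for astrocytes rose and 0 fell, 4 of 10 for neurons rose and 4 fell, 3 of 7 for the oligodendrocyte lineage rose and 1 fell, and 1 of 7 for microglia rose. Their part was not tested. Of the 15 calls, 8 held under all 27 alternatives: Nfe2l2, Mt1, Gpx8, Mt3, Gpx3, Srxn1, Slc7a11 and Txn1. Without overlap, 7 of the 40 members were higher and 8 lower, beside 7.94% and 10.6% of all genes. The median log2 fold change of the members was -0.004, beside -0.009 for all genes.

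Mt1 measured 132, 147, 141 and 165 FPKM and Mt3 84.0, 87.1, 94.5 and 103 FPKM with TGF-β1, all above the Control libraries. Both were upregulated, Mt1 at log2 fold change 0.86, SE 0.12, limma adjusted p = 0.000903, and Mt3 at log2 fold change 0.75, SE 0.15, limma adjusted p = 0.00616. Mt2 had a log2 fold change of 0.18 and did not pass, with 2 treated libraries inside the Control range of 9.73 to 16.7 FPKM. Gpx8 stayed at 9.52, 7.34, 8.19 and 8.94 FPKM (log2 fold change 1.12, SE 0.16, limma adjusted p = 0.00103). Gpx3, the secreted peroxidase, measured 1.86, 2.34, 1.79 and 1.40 FPKM in Control and 2.90, 2.93, 3.17 and 2.55 FPKM with TGF-β1, on 39 to 93 reads and without overlap (log2 fold change 0.64, SE 0.13, limma adjusted p = 0.00705).

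The pair at the head of the pathway moved apart. Nfe2l2 was at 5.08, 5.44, 4.88 and 4.43 FPKM with TGF-β1, all above the highest Control library of 3.56 FPKM (log2 fold change 0.74, SE 0.10, limma adjusted p = 0.000529). Keap1 was at 11.5 to 11.8 FPKM, all below the lowest Control library of 12.6 FPKM (log2 fold change -0.33, SE 0.07, limma adjusted p = 0.00937), a call that a correction for GC content removed, with the log2 fold change reduced to -0.18 (limma adjusted p = 0.0546). RNA levels do not measure the Nrf2 protein, which is controlled mainly by degradation. The 10 targets did not share a direction: Srxn1 was upregulated (log2 fold change 0.29, SE 0.06, limma adjusted p = 0.0105), while Slc7a11 (log2 fold change -0.56, SE 0.10, limma adjusted p = 0.00374) and Hmox1 (log2 fold change -0.24, SE 0.06, limma adjusted p = 0.0262) were downregulated, and 7 did not pass. Hmox1 lost its call without Control 3 or Trauma+TGF-β1 2, at limma adjusted p-values of 0.0570 and 0.0727, and under quantile normalization or a correction for gene length, at 0.0792 and 0.183, with log2 fold changes of -0.19 and -0.15.

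Txn1 (log2 fold change -0.33, SE 0.07, limma adjusted p = 0.00854) and Sod1 (log2 fold change -0.24, SE 0.05, limma adjusted p = 0.00967) were both below Control. Their treated libraries, 60.3 to 76.3 and 27.6 to 31.2 FPKM, lay below every Control library, although quantile normalization reduced the log2 fold change of Sod1 to -0.15 (limma adjusted p = 0.0650). Prdx1 rose (log2 fold change 0.26, SE 0.06, limma adjusted p = 0.0195), from 36.9 ± 3.91 to 43.9 ± 2.00 FPKM, with 1 Control library inside the treated range. The remaining excess of Prdx6 over Control was small (log2 fold change 0.19, SE 0.06, limma adjusted p = 0.0385) and its groups did not overlap. Prdx1 lost its call without Control 2, Control 3 or Trauma+TGF-β1 2, at limma adjusted p-values of 0.0586 to 0.0612. Prdx6 lost it without any one of Control 2, 3 or 4, Trauma 3 or Trauma+TGF-β1 1 or 2, at 0.0530 to 0.108. Ftl1 was lower than Control in all treated libraries (log2 fold change -0.29, SE 0.06, limma adjusted p = 0.00623), though quantile normalization brought the log2 fold change to -0.12 (limma adjusted p = 0.152) and a correction for GC content to -0.16 (limma adjusted p = 0.0913). Gstp1 was downregulated (log2 fold change -1.13, SE 0.30, limma adjusted p = 0.0241) without overlap, and the call was lost without Control 2 or 4 or Trauma+TGF-β1 1, 2 or 4, at limma adjusted p-values of 0.0506 to 0.0709.

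**Figure D5:**
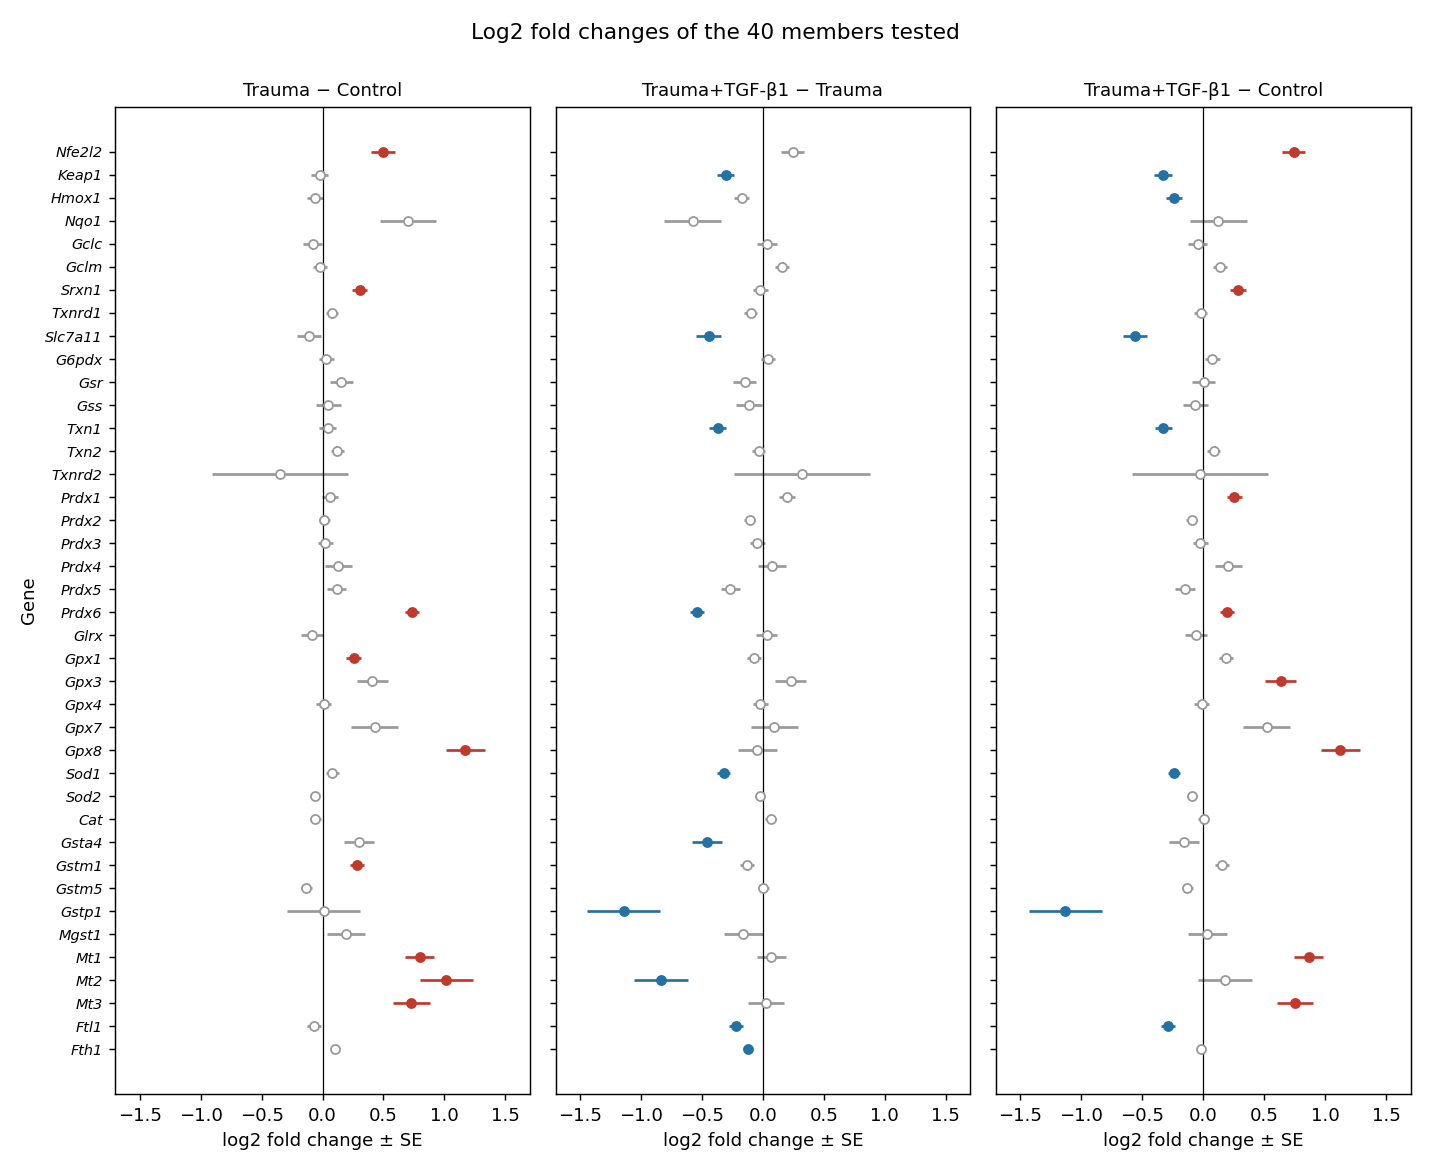
Log2 fold change (horizontal axes) ± SE from limma for the 40 members tested, in the 3 comparisons; filled red points were upregulated and filled blue points downregulated at an adjusted p of at most 0.05, and open grey points did not pass. The 9 filled points of the left panel are all red, the 10 of the middle panel are all blue, and the right panel holds 8 red and 7 blue.

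Summed by role, the 3 metallothioneins reached 148 ± 22.2 FPKM in Control, 255 ± 31.1 FPKM in Trauma and 252 ± 19.4 FPKM in Trauma+TGF-β1. The 10 Nrf2 targets summed to 99.9 ± 1.76, 103.7 ± 1.25 and 99.9 ± 1.06 FPKM in the same order. The 10 thioredoxin and peroxiredoxin genes summed to 354 ± 9.08, 379.9 ± 12.7 and 337 ± 7.07 FPKM. The 2 ferritins gave 449.9 ± 10.7, 454 ± 18.1 and 403 ± 18.1 FPKM. These sums were not tested.

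Other genes of the same pathways were counted from 5 lists of 103 genes that share no member with the 41. Of the 82 that could be tested, 4 were upregulated and 3 downregulated in Trauma against Control, beside 3.30% and 2.70% of all genes, and these shares lay close to the background. Ephx1, which encodes microsomal epoxide hydrolase, rose from 14.7 ± 0.963 to 22.0 ± 1.63 FPKM (log2 fold change 0.58, SE 0.06, limma adjusted p = 0.000124), while Idh1, a cytosolic source of NADPH, fell from 90.9 ± 3.79 to 64.4 ± 1.91 FPKM (log2 fold change -0.50, SE 0.04, limma adjusted p = 3.39e-05). Slc39a1, a zinc importer, and Selenop, a selenium carrier, also rose, with log2 fold changes of 0.32 and 0.28. Me1, malic enzyme, and Aco1, the iron regulatory aconitase, fell, with log2 fold changes of -0.28 and -0.15.

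In Trauma+TGF-β1 against Trauma, 4 of the 82 rose and 15 fell, beside 4.40% and 7.71% of all genes. Of the 15 further Nrf2 targets, 1 rose and 5 fell. Me1 went up (log2 fold change 0.21, SE 0.05, limma adjusted p = 0.0181), and Blvrb, biliverdin reductase B, went down on low values, from 1.51 ± 0.346 to 0.840 ± 0.155 FPKM (log2 fold change -0.76, SE 0.19, limma adjusted p = 0.0262). Glrx5, a mitochondrial glutaredoxin needed for iron-sulfur clusters, fell from 21.4 ± 1.13 to 14.2 ± 0.932 FPKM (log2 fold change -0.59, SE 0.10, limma adjusted p = 0.00838). Selenot and Slc39a10 rose, with log2 fold changes of 0.21 and 0.17, and Oplah, which recycles oxoproline from glutathione breakdown, fell, with -0.49.

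In Trauma+TGF-β1 against Control, 6 of the 82 rose and 17 fell, beside 6.14% and 10.4% of all genes. The 3 largest rises were in genes of metal transport: Atp7a, a copper pump, Trf, transferrin, and Slc39a1 had log2 fold changes of 0.54, 0.47 and 0.30. Glrx5, Chac1, which degrades glutathione, and Slc30a3, the zinc transporter of synaptic vesicles, fell, with log2 fold changes of -0.57, -0.54 and -0.51. The 17 metal handling genes tested gave 4 up and 3 down, and the 17 glutathione genes tested gave 0 up and 5 down.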

How the data were processed

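Cultured cortical neurons of mice were profiled by RNA-seq. The 12 libraries form 3 groups of 4, taken from the labels. Per the submitters' processing notes and methods, the authors base-called with CASAVA, aligned reads to mm10 with HISAT2 2.0.5, counted reads per gene and computed FPKM, which are the deposited values. The deposited table also gives each gene's length in bases (other). Whether counting used the strand is not given in the sources used here.

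FPKM multiplied by length gave whole multiples of one step in 100% of values, within 0.02 of a read or, for large values, 1e-06 of the value, hence the reads. The step showed that the deposited FPKM already carry a median-of-ratios scaling, so that a further division changed no call. To the values 0.1 was added and log2 taken. Genes with a mean of at least 0.5 FPKM over the 12 libraries were tested in one fit with limma 3.58.1 in R 4.3.3 (eBayes with a trend) and Benjamini-Hochberg adjustment over the 15016 genes tested, with a threshold of 0.05. Fold changes are on the log2(FPKM + 0.1) scale, which understates low genes. A count test, as in the study, was not the main test because the table holds FPKM. The procedure was tested on simulated data.

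Members, roles, lists and markers were chosen with earlier results of these data known. Every member could be named, and of the other pathway genes the 3 that changed most in each direction of each comparison among those called, provided that the higher group averaged 1 FPKM or more. Gene coordinates are those of the table, and all 41 members have the same in GENCODE M21. The alternatives were another pseudocount, filter, scaling, fit, test, replicate block or correction, and each library left out in turn. One of them, scaling to reads on genes, was chosen after seeing the data. Python 3.11.15 with numpy 2.4.6 and pandas 2.3.3 made the tables, and matplotlib 3.10.9 the figures.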

Additional observations from a re-analysis of the deposited data

Results flagged for a closer look

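In 2 of the 123 groups of 4 values, 1 library stood apart from the other 3 beyond Dixon's 95% critical value for 4 samples, and chance marks about 1 in 20 groups. Nfe2l2 was 3.56 FPKM in Control 1, while the other Control libraries lay between 2.68 and 2.77 FPKM. Fth1 was 218 FPKM in Trauma 4, the lowest of its group, with the others between 223.8 and 224.8 FPKM. The calls of Nfe2l2 against Control held without Control 1.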

How the results depend on the processing

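The number of members called in Trauma against Control was 9 and stayed between 7 and 10 when each library was left out in turn, and between 7 and 10 under the 15 other alternatives. Over all genes, 496 were up and 405 down there in the main fit. With 7 members called, they were 326 and 235 without Trauma 2, and 310 and 208 in the fit of the 2 groups. With the GC correction, also at 7 members, they were 570 and 523. Without Trauma 4, at 8 members, they were 300 and 189, and without Control 2, at 10 members, 452 and 301. In Trauma+TGF-β1 against Trauma the number of members called was 10, with 4 to 13 when a library was left out: 5 without Trauma 1, 4 without Trauma 2, 6 without Trauma 4, and 5 without Trauma+TGF-β1 2 or without Trauma+TGF-β1 4. It was also 5 with no filter on low values, 6 with eBayes without a trend, 6 with a loess correction for gene length and 4 with that correction and the replicate block, and 5 with a loess correction for GC content and 6 with that correction and the replicate block (the cause was not tested). Calls over all genes fell under these settings too, from 661 up and 1158 down in the main fit. Leaving out Trauma 1, 2 or 4 gave 351 and 670, 241 and 553, and 245 and 616. Without Trauma+TGF-β1 2 or 4 they were 168 and 483, and 226 and 576. They were 319 and 668 with no filter and 475 and 835 without a trend. Length correction gave 439 and 799, or 293 and 512 with the block. GC correction gave 319 and 577, or 259 and 427 with the block. With no filter the calls of members lost were those of Fth1, Ftl1, Gsta4, Gstp1 and Mt2. In Trauma+TGF-β1 against Control the number of members called was 15, with 11 to 18 when a library was left out and 12 to 17 under the other alternatives. Over all genes, 538 were up and 967 down without Trauma+TGF-β1 2, where 11 members were called. Without Control 1, where 18 members were called, they were 1332 and 2057. The fit of the 2 groups, with 12 members called, gave 565 and 1036, and the length correction, with 17, gave 885 and 1309. Scaling moved the split of the members in this comparison from 8 up and 7 down to 11 up and 4 down with quantile normalization. Over all genes the split moved as well, from 922 up and 1565 down to 1134 and 918. Of the 34 calls of members, 1, Fth1 in Trauma+TGF-β1 against Trauma, changed direction under some alternative. So did 37 of the 86 values that had not passed, and 1 of them, Fth1 against Control, then passed. Among the values called under any setting, these reversed. For Prdx3, Trauma+TGF-β1 against Trauma, the log2 fold change became 0.029 with quantile normalization and 0.074 with the length correction, with or without the block. For Fth1 it became 0.0063 in that comparison with quantile normalization. Against Control, that of Fth1 became 0.14 with quantile normalization. It was 0.021 with the length correction and 0.0069 with the GC correction, both corrections with or without the block. With FPKM set to the reads on genes, a scaling added after seeing the data, it was 0.020. The replicate block alone gave 8, 9 and 14 calls in the 3 comparisons and ended those of Gpx1 in Trauma against Control, Mt2 against Trauma and Prdx6 against Control, at limma adjusted p-values of 0.0528, 0.0568 and 0.0530. Over all genes the block gave 437 up and 349 down, 546 and 971, and 838 and 1429 in the same order, fewer than the main fit. With the length correction and the block, Gstm1 in Trauma against Control and Txn1 in Trauma+TGF-β1 against Trauma lost theirs, at 0.0694 and 0.0562. Replicate numbers did not pair the libraries: deviations of same-numbered libraries correlated at -0.0088 to 0.076, and 1 of the 12 libraries correlated best with its own number. Members were shorter than other genes tested, with a median length of 2376 against 3865 bases. Low reads limit Nqo1, Gstp1, Txnrd2 and Sod3, and reads of Gpx4 and Ftl1 may be shared with Gpx4-ps2 (534 to 691 reads per library) and Ftl1-ps1 (140 to 279). Gstm5 overlaps the antisense gene 4933431E20Rik, with a similar number of reads. The spans of Gss and G6pdx overlap the opposite-strand genes Acss2 and Ikbkg. Acss2 had a mean of 641 reads beside 293 for Gss, and Ikbkg 590 beside 802 for G6pdx.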
